A study of Homo sapiens with 6 samples.

Results

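The genes described are the 6 EGF receptor ligands HBEGF, AREG, EREG, TGFA, BTC and EPGN and the 3 receptors EGFR, ERBB2 and ERBB3, taken by gene name from the 20660 gene names of an RNA sequencing table. The table compares FaDu cells treated with BB608 with FaDu cells treated with DMSO, the solvent control, and the series has 3 biological replicates of each. The table's group names call both groups a subset without saying of what, so which of the 3 libraries of a group entered each value is not known. FaDu is an established human line that was grown from a hypopharyngeal squamous carcinoma, a head and neck cancer (HNSCC in the labels). For BB608 only the code name is known here, and neither dose nor treatment time is given in the labels. The table holds 1 pooled FPKM value (fragments normalised to transcript length and library size) per group and coding sequence, with no value per library, so no spread between replicates can be shown and depth is unknown. The 9 genes have 56 coding sequences in the table, of which 24 were tested by the authors.

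EGF receptor ligands are made as membrane proteins and are cut off the cell surface by metalloproteases, after which they bind the receptor on the same or neighbouring cells. Ligand binding pairs EGFR with itself or with another ERBB receptor and starts RAS-ERK and PI3K signalling. In squamous epithelium and its cancers, the ligands are known as growth signals that the cells make for themselves, and transcription of several of them is itself raised by ERK signalling.

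The ligands share 1 module, the EGF-like repeat that contacts the receptor, and its coding sequence is shown because it is the feature that makes these 6 genes a family. In each line below, taken from the GENCODE 29 transcripts and read 5′ to 3′ on the coding strand, the capitals mark the 6 cysteine codons.
HBEGF: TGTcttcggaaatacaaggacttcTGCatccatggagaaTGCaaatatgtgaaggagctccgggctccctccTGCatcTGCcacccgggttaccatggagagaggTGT
AREG: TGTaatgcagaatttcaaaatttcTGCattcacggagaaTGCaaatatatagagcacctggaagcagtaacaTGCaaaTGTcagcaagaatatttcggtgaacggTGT
EREG: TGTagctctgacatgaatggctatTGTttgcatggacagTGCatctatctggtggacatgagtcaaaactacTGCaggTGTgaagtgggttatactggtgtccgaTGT
TGFA: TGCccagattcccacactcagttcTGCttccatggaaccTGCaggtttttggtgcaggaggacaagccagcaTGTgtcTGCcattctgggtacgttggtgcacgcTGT
BTC: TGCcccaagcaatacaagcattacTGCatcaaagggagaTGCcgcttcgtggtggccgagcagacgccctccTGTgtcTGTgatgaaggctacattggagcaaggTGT
EPGN: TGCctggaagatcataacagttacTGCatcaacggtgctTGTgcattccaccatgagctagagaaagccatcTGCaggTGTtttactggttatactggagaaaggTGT
All 6 modules were 108 bases long, with 7, 4, 10, 1 and 8 codons between successive cysteine codons. The HBEGF module runs from base 322 to base 429 of a coding sequence of 624 bases. In pairwise global alignments that allowed gaps, it shared 63.0% of its bases with AREG and 61.1% with BTC. The share was 58.3% each with TGFA and EPGN, and 57.4% with EREG. Shares counted position by position, without gaps, can be lower, so these values do not settle which ligand is closest.

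With BB608, HBEGF fell, and no other ligand or receptor had a q under 0.05 in the authors' comparison. HBEGF encodes heparin-binding EGF-like growth factor, which binds EGFR and ERBB4. Its only coding sequence had 5.64 FPKM in BB608 cells, against 14.5 FPKM in DMSO cells, in the authors' deposited table. The level in DMSO cells was 2.56 times that in BB608 cells. The log2 fold of BB608 over DMSO, computed here and below from the authors' pooled FPKM, was -1.36, with a standard error of 0.22 and a 95% interval from -1.79 to -0.93. Cuffdiff's q, a p-value adjusted by the Benjamini-Hochberg method, was 0.0154 in the authors' deposited table, from a p of 5e-05, the smallest p that table holds. The standard error was derived from the fold and the authors' statistic, with a scale taken from the statistics and p-values of 32680 coding sequences. HBEGF is not among these, because its p is the smallest of the table. This standard error is called the implied SE from here on. It covers only the spread that their model estimated. HBEGF lies on chromosome 5 from 139712428 to 139726216 of hg19, and no other gene of the table shares that locus.

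A coding sequence was called changed at a q under 0.05, with no bound on the fold. HBEGF is the 1 called coding sequence among the 24 tested ones of the 9 genes. In all, 122 of 34474 tested coding sequences were called, or 0.354%, with 0.212% called lower and 0.142% called higher in BB608. These were 73 falls and 49 rises, but with a mean of at least 5 FPKM there were 38 falls and 45 rises. Among coding sequences that were the only tested one of their gene, as that of HBEGF is, 2.28% were called and 1.27% were called lower. By size, the fold of HBEGF ranked 16 among 73 called falls, and 6 among the 40 called falls with at least 5 FPKM in DMSO cells. Of 641 only-tested coding sequences within 2-fold of HBEGF's level in DMSO cells, 3 had a lower fold and 18 were called. Their median fold was 0.02.

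**Figure D1:**
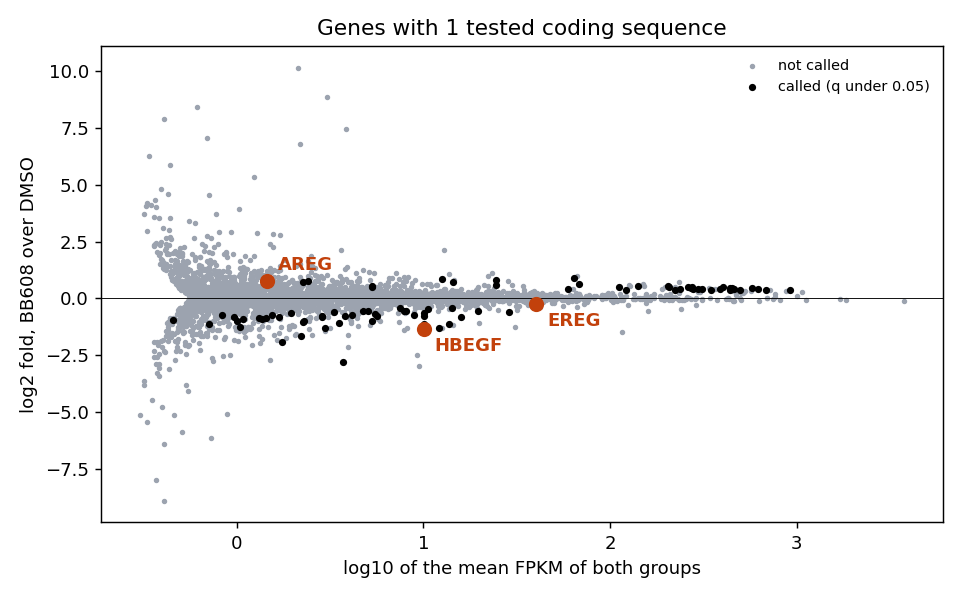
Each point is a gene with 1 tested coding sequence, with the log10 of the mean FPKM of both groups on the x axis and the log2 fold of BB608 over DMSO on the y axis, from the authors' pooled values. Black points were called at a q under 0.05. HBEGF lies among the called points at -1.36, while EREG at -0.25 and AREG at 0.75 were not called.

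The next ligands moved by less or in the other direction. EREG, which encodes epiregulin, a ligand of EGFR and ERBB4, was the most abundant ligand gene. Its only coding sequence had 36.8 FPKM in BB608 cells and 43.8 FPKM in DMSO cells. Its log2 fold was -0.25 (implied SE 0.10, 95% interval -0.45 to -0.05), with a p of 0.0143 and a Cuffdiff q of 0.997 in the authors' deposited table. EREG therefore did not pass the threshold, and its interval does not reach a change of 1 log2.

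AREG encodes amphiregulin, an EGFR ligand that many squamous cells make in large amounts, but it was low in both groups here. Its tested coding sequence had 1.82 FPKM in BB608 cells and 1.08 FPKM in DMSO cells, so it was higher in BB608. The log2 fold was 0.75 (implied SE 0.28, 95% interval 0.19 to 1.30), with a p of 0.0101 and a Cuffdiff q of 0.888 in the authors' deposited table. With a pseudocount of 1 FPKM the AREG fold was 0.44. AREGB, a near-identical second amphiregulin locus of hg19, is listed at 0 FPKM in both groups. How reads that match both loci were assigned was not tested, so the level of AREG is uncertain. HBEGF, EREG and AREG are the 3 of the 24 tested coding sequences with an unadjusted p under 0.05, and each is the only tested one of its gene. Such a p was found in 3.31% of all tested coding sequences and in 10.3% of the only-tested ones.

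TGFA, which encodes transforming growth factor alpha, an EGFR ligand, had a gene sum of 8.56 FPKM in BB608 cells and 9.18 FPKM in DMSO cells over its 7 coding sequences. A gene sum adds all coding sequences of a gene, since Cufflinks must divide reads among overlapping ones. The most abundant sequence had 5.28 FPKM in BB608 cells and 6.21 FPKM in DMSO cells, a log2 fold of -0.23 (implied SE 0.40). A second had 2.65 FPKM in BB608 cells and 2.63 FPKM in DMSO cells. Another tested sequence had 0.637 FPKM in BB608 cells and 0.0203 FPKM in DMSO cells, and its log2 fold of 4.97 came with an implied SE of 3.77. The 95% interval of the main TGFA sequence runs from -1.02 to 0.56, so a change of 1 log2 is not resolved.

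BTC, which encodes betacellulin, a ligand of EGFR and ERBB4, had a gene sum of 2.14 FPKM in BB608 cells and 2.65 FPKM in DMSO cells. Its 2 coding sequences had log2 folds of -0.61 (implied SE 0.55) and 0.08 (implied SE 0.34). EPGN, which encodes epigen, an EGFR ligand of low affinity, had a gene sum of 0.488 FPKM in BB608 cells and 0.636 FPKM in DMSO cells. None of the 9 EPGN coding sequences was tested by the authors, and the largest single value was 0.183 FPKM in BB608 cells and 0.497 FPKM in DMSO cells, in different sequences. EPGN shares its locus with MTHFD2L, at 5.33 FPKM in BB608 cells and 6.17 FPKM in DMSO cells. At such levels a change in EPGN was not detectable.

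**Figure D2:**
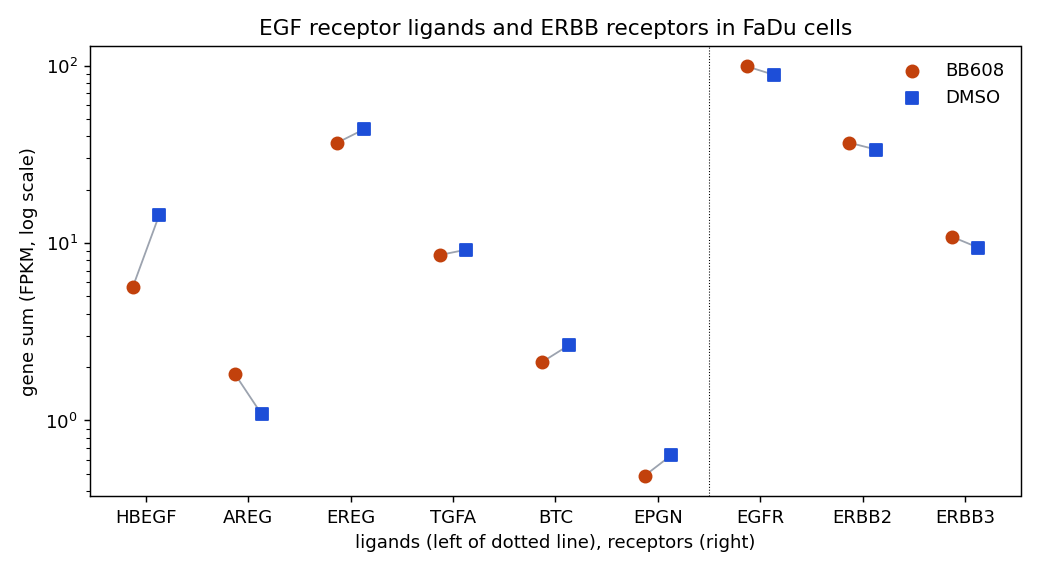
Gene sums in FPKM on a log scale for the 6 ligands and 3 receptors, with 1 pooled value for BB608 (circles) left of 1 for DMSO (squares), joined by a line. HBEGF has the steepest line, at 5.64 FPKM in BB608 and 14.5 FPKM in DMSO, and AREG and the 3 receptors slope the other way.

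The fold of HBEGF was set against each other gene's most abundant tested coding sequence. HBEGF minus EREG was -1.11 on the log2 scale, with a combined implied SE of 0.24 and a 95% interval from -1.59 to -0.63. HBEGF minus AREG was -2.11 (interval -2.81 to -1.40), and HBEGF minus TGFA was -1.13 (interval -2.03 to -0.22). HBEGF minus BTC was -0.75, with an interval from -1.91 to 0.41 that includes 0, so a difference between these 2 ligands was not resolved. AREG minus EREG was 1.00 (interval 0.41 to 1.59). These intervals treat the authors' estimates as independent, were chosen with the folds known, and have no p.

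Because FPKM is per length, the ligand genes can be added. The 6 ligands summed to 55.5 FPKM in BB608 cells and 71.8 FPKM in DMSO cells, a log2 fold of -0.37. Of the difference of -16.3 FPKM, HBEGF made up -8.82 FPKM and EREG -6.95 FPKM. HBEGF held 10.2% of the ligand sum in BB608 cells and 20.1% in DMSO cells. EREG held 66.4% in BB608 cells and 61.0% in DMSO cells, so it was the leading ligand in both groups. HBEGF was the second ligand in DMSO cells and ranked below TGFA in BB608 cells. TGFA held 15.4% in BB608 cells and 12.8% in DMSO cells. The sums have no error, since they rest on 1 value per group.

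In both groups the order of gene sums over all 9 genes began with EGFR, and below it EREG and ERBB2 were close, at 36.8 FPKM each in BB608 cells and at 43.8 FPKM and 33.7 FPKM in DMSO cells. HBEGF stood above TGFA and ERBB3 in DMSO cells and below both in BB608 cells. BTC, AREG and EPGN were the lowest, in that order, in both groups.

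**Figure D3:**
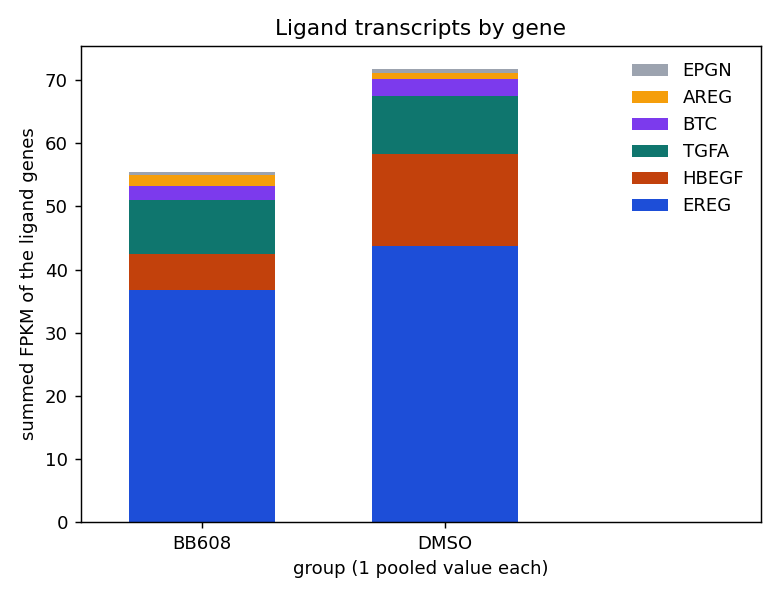
Stacked bars of the summed FPKM of the 6 ligand genes, BB608 left and DMSO right, with 1 pooled value per group and no error. The BB608 bar reaches 55.5 FPKM and the DMSO bar 71.8 FPKM, and the HBEGF band is 5.64 FPKM in BB608 and 14.5 FPKM in DMSO.

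No receptor coding sequence was called among the 16 tested. At an unadjusted p under 0.05 the count was also 0, by Cuffdiff's test in the authors' deposited table. EGFR, the receptor of all 6 ligands, was the most abundant of the 9 genes, with a gene sum of 99.0 FPKM in BB608 cells and 88.9 FPKM in DMSO cells. Its level in DMSO cells exceeded that of 91.1% of 10849 genes with at least 1 FPKM. Its most abundant coding sequence had 67.7 FPKM in BB608 cells and 63.2 FPKM in DMSO cells, a log2 fold of 0.10 (implied SE 0.12, 95% interval -0.14 to 0.34). A second had 29.5 FPKM in BB608 cells and 23.8 FPKM in DMSO cells, a log2 fold of 0.31 (implied SE 0.26). These intervals do not include a change of 1 log2 for either of the main EGFR sequences.

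ERBB2, the partner receptor with no known ligand of its own, had a gene sum of 36.8 FPKM in BB608 cells and 33.7 FPKM in DMSO cells. Its main coding sequence had 16.6 FPKM in BB608 cells and 14.8 FPKM in DMSO cells, a log2 fold of 0.17 (implied SE 0.16, 95% interval -0.15 to 0.49). The 8 tested ERBB2 sequences had folds of up to 2.10, with 5 lower and 3 higher in BB608. Their implied SEs reached 2.11, so the minor sequences carry little information. ERBB2 shares its locus with MIEN1 and PGAP3 in the table.

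ERBB3, a receptor with a weak kinase that binds neuregulins and signals through PI3K, had a gene sum of 10.9 FPKM in BB608 cells and 9.43 FPKM in DMSO cells. Its main sequence had 4.02 FPKM in BB608 cells and 4.24 FPKM in DMSO cells, a log2 fold of -0.08 (implied SE 0.39). The fold of the gene sum, which has no error of its own, was 0.21, opposite in sign to that of the main sequence. Both folds were smaller in size than the implied SE of the main sequence. One ERBB3 sequence had 1.14 FPKM in BB608 cells and less than 0.001 FPKM in DMSO cells, with a p of 0.0708 in the authors' deposited table, so no fold is given. ERBB3 shares its locus with the far more abundant PA2G4, at 257 FPKM in BB608 cells and 265 FPKM in DMSO cells.

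**Figure D4:**
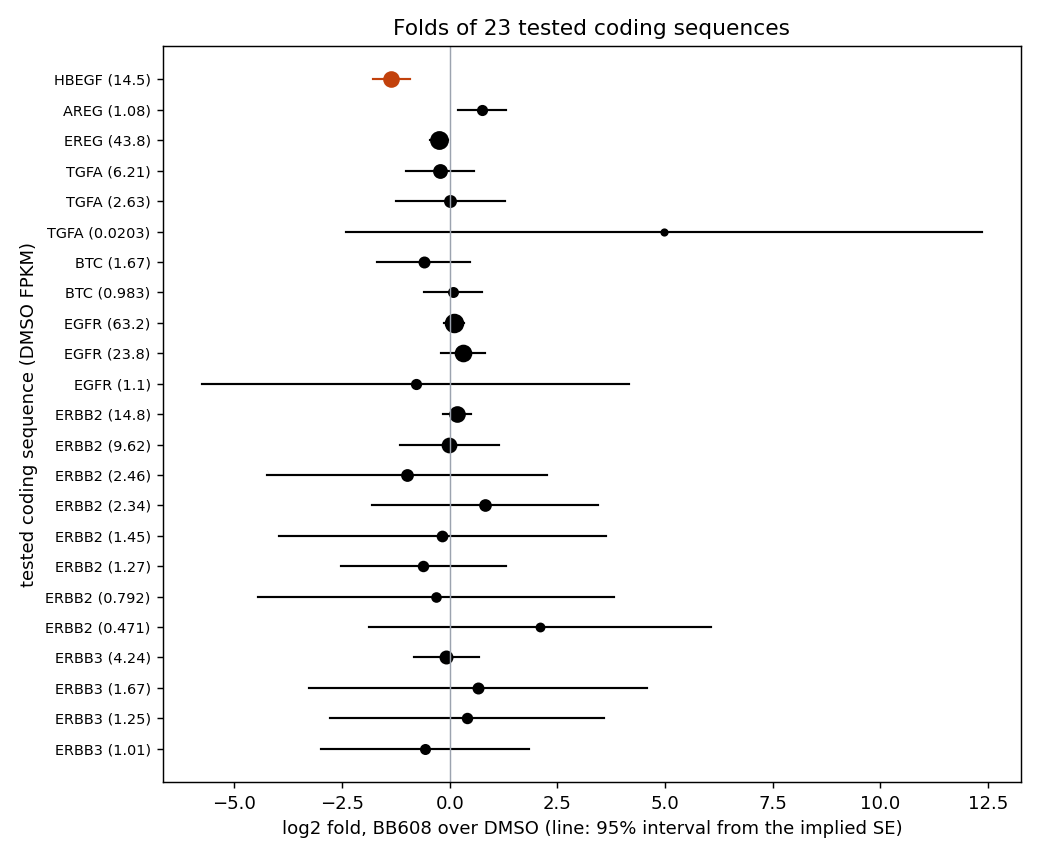
Log2 folds of BB608 over DMSO for 23 tested coding sequences of the 9 genes, each labelled with its DMSO FPKM; lines are 95% intervals from the implied SE, and larger points are more abundant. The HBEGF interval, from -1.79 to -0.93, lies apart from 0, as do those of the uncalled EREG and AREG. One ERBB3 sequence near 0 FPKM in DMSO is left out.

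The 3 receptor sums together came to 147 FPKM in BB608 cells and 132 FPKM in DMSO cells, a log2 fold of 0.15. HBEGF minus the main EGFR sequence was -1.46 on the log2 scale (interval -1.95 to -0.97), HBEGF minus ERBB2 -1.53 (interval -2.06 to -0.99) and HBEGF minus ERBB3 -1.28 (interval -2.15 to -0.41). As a group the members had no shared direction. Of the 24 tested coding sequences, 12 were lower and 12 higher in BB608, but sequences of the same gene divide reads and are not independent. By gene sum, AREG was the only ligand higher in BB608 and the others were lower, while all 3 receptors were higher. Of all these, only HBEGF was called. The median log2 fold of the 8 members with a gene sum of at least 1 FPKM was 0.01, beside 0.03 over all 10849 such genes.

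Other genes of the family were tested for few coding sequences. Of EGF, the 4 neuregulins and ERBB4, only NRG1 and NRG4 had tested sequences. NRG1, a ligand of ERBB3 and ERBB4, had a gene sum of 14.3 FPKM in BB608 cells and 15.0 FPKM in DMSO cells. NRG4, an ERBB4 ligand, had 5.15 FPKM in BB608 cells and 7.29 FPKM in DMSO cells. Neither gene was called, and neither had an unadjusted p under 0.05. ERBB4 summed to 0.0759 FPKM in BB608 cells and 0.0812 FPKM in DMSO cells, and EGF to less than 0.001 FPKM in both.

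The genes that release, restrain and transmit the ligand signal were taken from lists chosen with earlier results of these data known. Over all 11429 genes with a tested coding sequence, 0.63% had one called lower and 0.429% one called higher, and 9.49% had one with an unadjusted p under 0.05. Among receptor inhibitors and turnover genes, 1 of 24 tested genes fell and none rose, and 3 had an unadjusted p under 0.05. The gene that fell was ERRFI1, whose product MIG6 binds the EGFR kinase and blocks it, and which is itself induced by EGFR signalling. ERRFI1 had 5.60 FPKM in BB608 cells and 10.2 FPKM in DMSO cells for its main coding sequence, a log2 fold of -0.87 (implied SE 0.17; Cuffdiff q 0.0154 in the authors' deposited table). A second ERRFI1 sequence had 3.07 FPKM in BB608 cells and 6.46 FPKM in DMSO cells, a log2 fold of -1.07 (implied SE 0.25; Cuffdiff q 0.0154), in the authors' deposited table. ERRFI1 had 4 tested sequences, and these 2 were the called ones. Its gene sum was 10.5 FPKM in BB608 cells and 19.8 FPKM in DMSO cells. The list's median gene sum fold was 0.02, beside 0.03 over all genes.

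Ligand shedding and trafficking genes, such as the proteases ADAM17 and ADAM10 that release the ligands, had no call among 11 tested genes by Cuffdiff's q and none at an unadjusted p under 0.05. Their median fold was -0.03. ADAM17, the main sheddase of HBEGF and AREG, was chosen for its role and had a gene sum of 13.8 FPKM in BB608 cells and 14.5 FPKM in DMSO cells. The 2 most abundant genes of the list were CD9, which encodes a tetraspanin that associates with the membrane form of HBEGF, at 215 FPKM in BB608 cells and 229 FPKM in DMSO cells, and CNIH, which encodes a cargo receptor of the secretory pathway, at 128 FPKM in BB608 cells and 132 FPKM in DMSO cells. Proximal adaptors and effectors had no call among 29 tested genes by Cuffdiff's q and a median of 0.07, with 2 genes below an unadjusted p of 0.05. Their most abundant genes were MAP2K2, a kinase that activates ERK, at 92.3 FPKM in BB608 cells and 82.5 FPKM in DMSO cells, and PTPN11, the phosphatase SHP2, at 85.2 FPKM in BB608 cells and 85.7 FPKM in DMSO cells.

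Output genes of the EGF receptor pathway had 5 of 19 tested genes that fell and none that rose, and 10 had an unadjusted p under 0.05. Their median gene sum fold was -0.39, with 15 lower and 4 higher in BB608, and the folds ran from -2.03 to 0.33. The AP-1 subunit gene FOS had a gene sum of 74.8 FPKM in BB608 cells and 114 FPKM in DMSO cells, and 1 of its 8 tested coding sequences was called. IER3, an early response gene, had 42.1 FPKM in BB608 cells and 58.0 FPKM in DMSO cells. DUSP5, an ERK phosphatase, had 11.4 FPKM in BB608 cells and 20.3 FPKM in DMSO cells. The chemokine gene IL8 had 43.0 FPKM in BB608 cells and 89.3 FPKM in DMSO cells, and the cyclooxygenase gene PTGS2 had 2.74 FPKM in BB608 cells and 10.6 FPKM in DMSO cells. Of the 2 tested sequences each of IER3, IL8 and PTGS2, 1 was called, as was the only one of DUSP5. These genes also respond to other signals, and their part in the result on HBEGF was not tested.

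**Figure D5:**
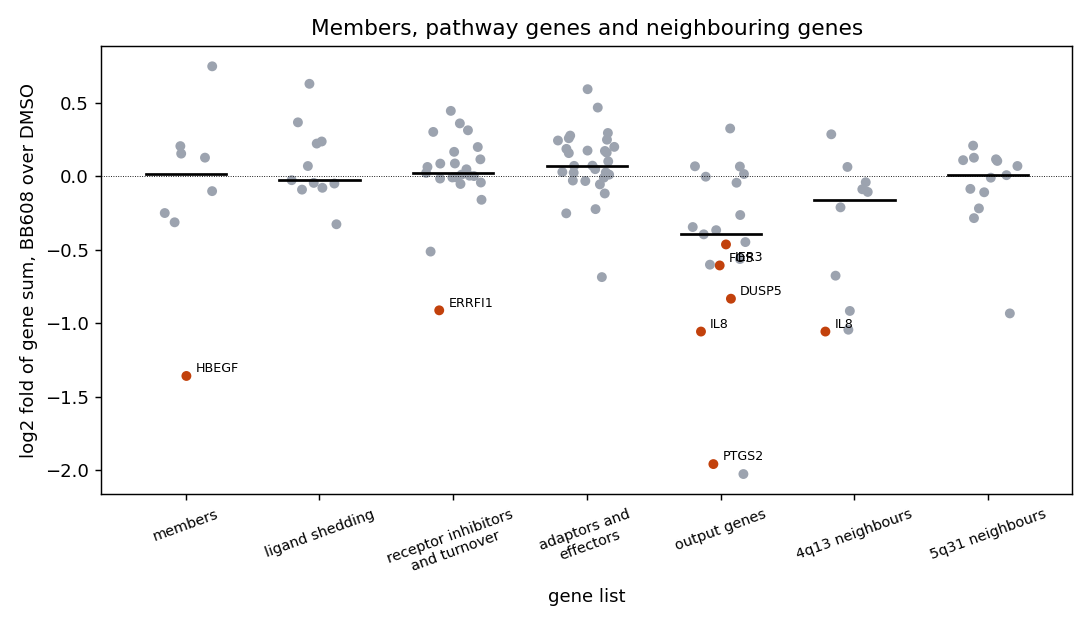
Log2 folds of gene sums, BB608 over DMSO, for the members and for genes of 6 lists with at least 1 FPKM. Points are genes, bars are medians, and coloured named points hold a coding sequence called at a q under 0.05. HBEGF at -1.36 and ERRFI1 at -0.91 lie below the rest of their lists, and the output genes have a median of -0.39.

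The members' loci in the table were TGFA on chromosome 2 from 70674412 to 70781325, EGFR on chromosome 7 from 55086714 to 55324313, ERBB2 on chromosome 17 from 37827375 to 37887040 and ERBB3 on chromosome 12 from 56473641 to 56507732, all on hg19. By position, AREG, EREG, BTC and EPGN lie together on chromosome 4 of hg19, EPGN from 74979891 to 75196015, EREG from 75230860 to 75254780, AREG from 75310851 to 75320726 and BTC from 75669958 to 75719896. AREG was the one of the 4 with a higher gene sum in BB608. None of the 4 was called and EPGN was not tested, so the direction of each gene is not settled. Of 10 tested neighbours of this cluster 1 fell and none rose, and 2 had an unadjusted p under 0.05. The one that fell was IL8, already counted among the output genes. The median gene sum fold of these 10 neighbours was -0.16, with 8 lower and 2 higher in BB608. Of 13 tested neighbours of HBEGF on chromosome 5 none was called by Cuffdiff's q and none had an unadjusted p under 0.05, and their median fold was 0.01. The most abundant of them were PFDN1, a prefoldin subunit gene, at 73.8 FPKM in BB608 cells and 85.8 FPKM in DMSO cells, and NDUFA2, a respiratory complex I subunit gene, at 78.9 FPKM in BB608 cells and 83.6 FPKM in DMSO cells.

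The promoters of the called ligand HBEGF and of the uncalled AREG and EREG are shown so that their sequence can be compared. They are the 250 bases before the RefSeq start on GRCh38.p14, 5′ to 3′ on the gene's strand, for HBEGF at chr5:140346604-140346853 on the minus strand, for AREG at chr4:74444886-74445135 on the plus strand and for EREG at chr4:74364895-74365144 on the plus strand. Capitals mark matches, on either strand, to the AP-1 site TGANTCA, the CRE TGACGTCA, the CArG box, the TATA box TATAAA and the GC box GGGCGG.
HBEGF: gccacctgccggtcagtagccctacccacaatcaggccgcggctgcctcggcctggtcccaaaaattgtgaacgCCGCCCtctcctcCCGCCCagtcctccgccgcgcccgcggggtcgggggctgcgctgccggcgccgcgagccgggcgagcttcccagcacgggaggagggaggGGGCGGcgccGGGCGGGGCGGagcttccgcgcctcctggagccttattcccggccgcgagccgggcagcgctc
AREG: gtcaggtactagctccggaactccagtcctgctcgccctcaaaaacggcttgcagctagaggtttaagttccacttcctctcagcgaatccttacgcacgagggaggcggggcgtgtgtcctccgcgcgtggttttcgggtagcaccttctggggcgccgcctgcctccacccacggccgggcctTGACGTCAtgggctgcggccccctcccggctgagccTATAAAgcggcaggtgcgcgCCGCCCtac
EREG: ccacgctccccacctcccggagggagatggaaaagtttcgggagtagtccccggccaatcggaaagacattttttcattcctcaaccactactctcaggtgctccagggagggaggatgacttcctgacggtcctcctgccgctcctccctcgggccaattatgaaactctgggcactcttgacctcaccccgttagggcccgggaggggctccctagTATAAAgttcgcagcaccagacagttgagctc
The HBEGF window held 5 GC boxes, 2 of them overlapping, and no match to the other motifs, and its GC content was 76.4%. The AREG window held 1 CRE, which begins 65 bases before the start, 1 TATA box at 29 bases and 1 GC box, and the EREG window held 1 TATA box at 32 bases. Among 34788 promoter windows of the same length, 42.6% held a GC box, 10.8% a TATA box, 6.59% an AP-1 site, 1.64% a CRE and 1.17% a CArG box. The ETS core CCGGAA was also searched on both strands and is not in capitals. The AREG window held 1, which begins 236 bases before the start, the HBEGF and EREG windows held none, and 14.5% of all windows held one. A match is a description of the letters and not a site of binding.

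The cell type named in the labels was compared with marker genes. All 10 squamous epithelial markers were tested and none was called, with KRT5 at 2472 FPKM in BB608 cells and 2334 FPKM in DMSO cells and KRT17 at 892 FPKM in BB608 cells and 893 FPKM in DMSO cells. Fibroblast markers summed to 0.883 FPKM in BB608 cells and 1.00 FPKM in DMSO cells. Blood markers summed to 20.5 FPKM in BB608 cells and 23.3 FPKM in DMSO cells, nearly all of it CD68, a lysosomal gene, and CD3E was listed at 0. Endothelial markers summed to 4.16 FPKM in BB608 cells and 3.88 FPKM in DMSO cells, nearly all of it CDH5, with KDR listed at 0. Neuroendocrine markers summed to 0.771 FPKM in BB608 cells and 0.323 FPKM in DMSO cells, and melanocyte markers to 2.42 FPKM in BB608 cells and 3.17 FPKM in DMSO cells, with TYR listed at 0. In bulk RNA, fewer cells that express a gene and less RNA per cell cannot be told apart.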

How the data were processed

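RNA was extracted with Trizol and sequenced after ribosomal RNA removal with a stranded total RNA kit, per the labels' protocols. The submitters' processing notes name TopHat2 2.0.11, Cufflinks 2.2.1, Cuffdiff and hg19, with no gene annotation named there. The deposited table gives 1 FPKM value per group and coding sequence, pooled by the authors. Its group names call each group a subset without saying of what, so how many of the 3 libraries were pooled is not known. For each coding sequence it also holds a log2 fold, a test statistic (a score), and the p-value and q-value of the authors' comparison. Folds used here were computed from the FPKM values. The deposited log2 folds matched the log2 FPKM ratios to within 4.72e-05 where both values exceeded 0.001 FPKM, and the q-values matched a Benjamini-Hochberg adjustment to within 5.23e-07. Depth is unknown.

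The design had foreseen limma on values per library. The table held only pooled values, so the authors' q under 0.05 was used and no test was added. The implied SE is the fold over the statistic, divided by 1.73, which is the median over 32680 coding sequences of the normal quantile of p divided by the statistic (quartiles 1.64 and 1.78). Gene sums add all coding sequences of a gene name. A gene entered a list's median with a tested sequence, no failed status, 1 gene name and 1 FPKM or more in either group. The 9 genes were named whatever their result. From each list a gene was named if called, and otherwise the 2 with the highest DMSO sum. The members and lists were chosen with earlier results of these data known. No gene of like pattern was sought, since there are 2 values per gene. Locus starts were raised by 1 to count from 1. Ligand modules were found by their cysteine spacing in GENCODE 29 principal transcripts, and promoters come from RefSeq on GRCh38.p14, where 8 of the 9 genes matched. Python 3.11.15 with pandas 2.3.3, numpy 2.4.6 and SciPy 1.17.1 was used.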

Additional observations from a re-analysis of the deposited data

How the results depend on the processing

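The 122 called coding sequences (73 lower and 49 higher in BB608) became 121 with a mean of at least 1 FPKM (71 lower, 50 higher). With at least 5 FPKM there were 83 (38 lower, 45 higher). In both of these settings q was adjusted again over the sequences kept, so calls can enter that are not among the 122. The count was 157 (95 lower, 62 higher) when p was taken from a normal quantile of the scaled statistic. A bound of 1 log2 left 40 by its own construction (33 lower, 7 higher). HBEGF was the 1 called member sequence under each of these 4 alternatives. Of 84 other settings over 17 member folds, 78 stayed within 1 implied SE of the gene's main sequence, which was used for gene sums too. For HBEGF, AREG and EREG the sequence and the gene sum have the same fold. Their settings are therefore counted for both, and some equal the main value by construction. The count of 78 is thus no measure of robustness. The other 6 were the AREG fold with a pseudocount of 1 FPKM, for the sequence and the gene sum alike, and 4 for EPGN, which has no implied SE to compare with. The fold of HBEGF ran from -1.22 with that pseudocount to -1.40 after quantile normalization. The sign changed once, for the uncalled ERBB3, between its main sequence and its gene sum. Setting the median of log2 ratios to 0 shifted every fold by 0.0349. No paired analysis was possible because each group has 1 pooled value, and leaving out each replicate was not run for the same reason.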
